A study of Mus musculus with 22 samples.

Results

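The genes described here are Cysltr1, Lmo7, Neo1 and Arl5a, 4 genes that were picked because they were much lower in tet-LIN28B than in control Pre-B cells, out of the 23129 genes listed in all 3 stages. Cysltr1, Lmo7 and Neo1 were chosen on the small Pre-B comparison and Arl5a on both the small and the large Pre-B comparison. Their values in those comparisons are therefore given as a description with no test. Whether the large Pre-B values also bore on the choice of Cysltr1, Lmo7 and Neo1 is not stated, so these too are given with no test. Tests of the 4 genes are given only for the large Pro-B comparison.

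Poly-A RNA was sequenced from bone marrow B cell precursors of adult mice, kept as co-housed littermates. Males and females were used interchangeably, and the sample labels do not give the sex of each mouse. The tet-LIN28B mice carried 1 copy of Col1a tetO-LIN28B, a doxycycline-inducible Flag-tagged human Lin28b cDNA in the Col1a locus, together with the Rosa26 rtTA*m2 transactivator. The controls were littermates heterozygous for Rosa26 rtTA*m2 without the transgene, so that both groups carried the transactivator, and both genotypes were kept for 10 days on chow with doxycycline at 200 mg/kg. Because the transactivator is driven from Rosa26, induction was not restricted to B cells. After depletion of CD3+, TER119+ and GR1+ cells, CD93+ IgM- cells were sorted into cKIT+ large Pro-B cells and into large or small cKIT- Pre-B cells, the size being set by forward scatter. Controls gave 4, 3 and 3 libraries and tet-LIN28B mice 5, 4 and 3 in the order of development (22 libraries, 15 mice). The 7 mice with a large Pre-B library had also given a large Pro-B library, and none of them gave a small Pre-B library.

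Between 13.9 and 23.26 M reads were counted per large Pro-B library, between 19.86 and 30.44 M per large Pre-B library and between 32 and 50.99 M per small Pre-B library. A floor of 3 reads corresponded to 2.31 to 3.76, 1.73 to 2.59 and 2.11 to 3.24 normalized counts, which is the level below which a value cannot be told from a few stray reads. Lin28b, the check of the genotype labels, did not overlap between genotypes in any stage, with 6.96 ± 2.34 (SD, n = 4) against 120 ± 72.1 (SD, n = 5) normalized counts at the Pro-B stage, 18.3 ± 9.63 (SD, n = 3) against 85.5 ± 60.6 (SD, n = 4) at the large Pre-B stage and 0 in every small Pre-B control against 145 ± 76.4 (SD, n = 3). The transgene is a human cDNA and the counts are of the mouse gene, so own and transgene reads could not be separated. The 7 B lineage markers (Cd79a, Cd79b, Pax5, Ebf1, Vpreb1, Igll1, Rag1) were detected in both genotypes of every stage, and none was at 0 throughout a group. One library, control replicate 3 of large Pre-B cells, stood apart from the others of its stage, with a median correlation of 0.918 against 0.945 to 0.952 for the other 6. In large Pro-B cells tet-LIN28B replicate 4 (0.875) and control replicate 4 (0.884) were below the other 7 (0.908 to 0.936). Log2 fold changes of the 4 genes that rest on these 3 libraries are given with and without them. Levels across stages, correlations and ratios within mice include them throughout.

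Heavy chain genes are rearranged in Pro-B cells. Once a pre-B cell receptor is made, large Pre-B cells divide under its signals and interleukin-7, after which small, resting Pre-B cells recombine their light chain genes. LIN28B, an RNA-binding protein found early in life, keeps let-7 microRNAs from maturing and also binds many mRNAs itself. The 4 genes act in different pathways. Cysltr1 encodes a receptor for cysteinyl leukotrienes, lipid mediators of inflammation, that couples to Gq proteins. Neo1 encodes neogenin, a receptor for netrins and repulsive guidance molecules that also acts as a co-receptor in bone morphogenetic protein signalling. Lmo7 encodes a LIM domain protein that connects cell junctions with the actin cytoskeleton and binds emerin. Arl5a encodes a small GTPase of the trans-Golgi network that recruits the GARP tethering complex for retrograde vesicles.

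On GRCm38.p6, Cysltr1 lies at chrX:106576509-106603679, Lmo7 at chr14:101729928-101934708, Neo1 at chr9:58874679-59036614 and Arl5a at chr2:52397949-52424874, where the spans cover the whole gene with its introns. RefSeq promoter sequences of 3 of the 4, Arl5a, Neo1 and Lmo7 (with 2 starts), were used, and the promoter of Cysltr1 was not analysed here. The 150 bases before the start are shown for a comparison of the genes with each other, with capitals marking matches to the searched motifs.
Arl5a (chr2:52424875-52425024, minus strand): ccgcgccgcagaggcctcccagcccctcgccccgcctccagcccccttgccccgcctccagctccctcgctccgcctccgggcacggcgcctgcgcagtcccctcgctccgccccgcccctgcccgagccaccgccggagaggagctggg
Neo1 (chr9:59036442-59036591, minus strand): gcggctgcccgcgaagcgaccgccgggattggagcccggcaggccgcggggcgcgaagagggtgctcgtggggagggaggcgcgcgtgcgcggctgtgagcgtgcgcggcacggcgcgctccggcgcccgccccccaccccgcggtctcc
Lmo7, first start (chr14:101729778-101729927, plus strand): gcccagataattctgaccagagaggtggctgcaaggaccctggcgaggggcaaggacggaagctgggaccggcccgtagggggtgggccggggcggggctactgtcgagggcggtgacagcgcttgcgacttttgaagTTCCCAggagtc
Lmo7, second start (chr14:101840473-101840622, plus strand): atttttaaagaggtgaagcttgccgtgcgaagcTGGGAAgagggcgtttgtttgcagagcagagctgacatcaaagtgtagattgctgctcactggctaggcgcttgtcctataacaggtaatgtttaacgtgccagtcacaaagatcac

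The windows searched ran from 250 bases before to 50 bases after the start, on both strands, and the share of all 32851 RefSeq promoter windows with a match stands beside each motif. Neither Arl5a nor Neo1 held CACGTG (an E-box, 7.15% of all windows), the looser CANNTG that includes it (72.3%), TGGGAA (25.6%), GAGGAA (28.3%), GTAAACA (3.65%) or TTCNNNGAA (8.30%). The first Lmo7 window held TGGGAA 2 times and CANNTG 1 time, and the second held TGGGAA and GAGGAA 1 time each. No motif was thus present in all 3 genes. The Arl5a, Neo1 and both Lmo7 windows contained 31, 54, 22 and 8 CG dinucleotides, against a median of 7 over all windows, so that base composition differed among the 4 windows as well.

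Because LIN28B is best known for its action on let-7, the let-7 seed was also looked for, a choice made after the values were seen. The 9 mature 5p sequences of the family in RefSeq, let-7a to let-7i and miR-98, had the same seed, bases 2 to 8, which is in capitals in 3 of them.
mmu-let-7a-5p: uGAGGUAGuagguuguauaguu
mmu-let-7d-5p: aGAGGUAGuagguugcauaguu
mmu-miR-98-5p: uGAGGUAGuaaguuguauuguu

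The complement of this seed, CTACCTC, occurred in none of the longest annotated 3′ UTRs of Cysltr1 (3474 bases), Lmo7 (792), Neo1 (2587) and Arl5a (4433), and in 8.95% of those of 20998 protein-coding genes. Among genes with a 3′ UTR of similar length, within a factor of 1.2, the share with a match was 18.8% for Cysltr1, 6.09% for Lmo7, 14.5% for Neo1 and 23.9% for Arl5a. In the same search Hmga2, a well-known let-7 target, had 4 matches and Arid3a had 2. Absence of these letters says nothing of other modes of regulation. None of the 50-base words in the longest coding transcript of each of the 4 genes occurred in a transcript of another gene, so reads of that length would not be shared with a paralog.

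In small Pre-B cells the 4 genes were lower in every tet-LIN28B library than in every control library. All 4 passed the filter on low values there, 1031 of 14664 genes tested (7.03%) were called lower and 1076 (7.34%) higher in limma at an adjusted p under 0.05, and in 16.2% all tet-LIN28B libraries lay below all controls. Since the genes were picked for this, nothing is read from it beyond the sizes. With each library scaled to the same total, the calls were 1227 lower and 829 higher. Bulk libraries do not tell fewer cells of a type from less RNA per cell.

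Cysltr1 had normalized counts of 149, 89.7 and 111.8 in the control small Pre-B libraries and of 1.41, 1.04 and 5.43 in the tet-LIN28B libraries. The leukotriene receptor was thus well detected in controls and near the floor of 3 reads after induction. Its log2 fold change on the log2(value + 1) scale was -5.19 (SE 0.53), the lowest of the 14664 genes that passed the filter. This rank and those given below describe values on which the genes were picked. The tet-LIN28B libraries held 1 to 6 reads each and 9 in all, against 362 reads in the controls, and the ratio of the pooled reads, scaled to the totals of their libraries, was 47.0 with an exact 95% interval of 24.5 to 103.6, which covers counting error only. With a pseudocount of 5 the log2 fold change was -4.01.

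Neo1 had 412, 315 and 213 normalized counts in control small Pre-B libraries and 21.1, 49.8 and 7.24 in tet-LIN28B libraries. The neogenin transcript differed among the induced libraries as well, the second being the highest. Its log2 fold change was -3.85 (SE 0.55), rank 16 from the lowest among the 14664 genes that passed the filter. It was -4.49 without tet-LIN28B replicate 2 and -3.18 without tet-LIN28B replicate 3.

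Lmo7 was the most even of the genes in controls, with 61.4, 61.6 and 62.9 normalized counts, against 0, 12.4 and 3.62 in tet-LIN28B libraries, of which the second was again the highest. The log2 fold change was -3.99 (SE 0.80), rank 13, and moved between -4.87 and -3.00 when one library was left out.

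Arl5a was the only one of the 4 that was abundant. It had 14453, 11312 and 11076 normalized counts in control and 3675, 3542 and 3325 in tet-LIN28B small Pre-B libraries. The groups were far apart, with 28.6% of the control mean left after induction. Its log2 fold change of -1.80 (SE 0.10) was smaller than those of the other genes and ranked 137, while its SE was the smallest of the 4.

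**Figure D1:**
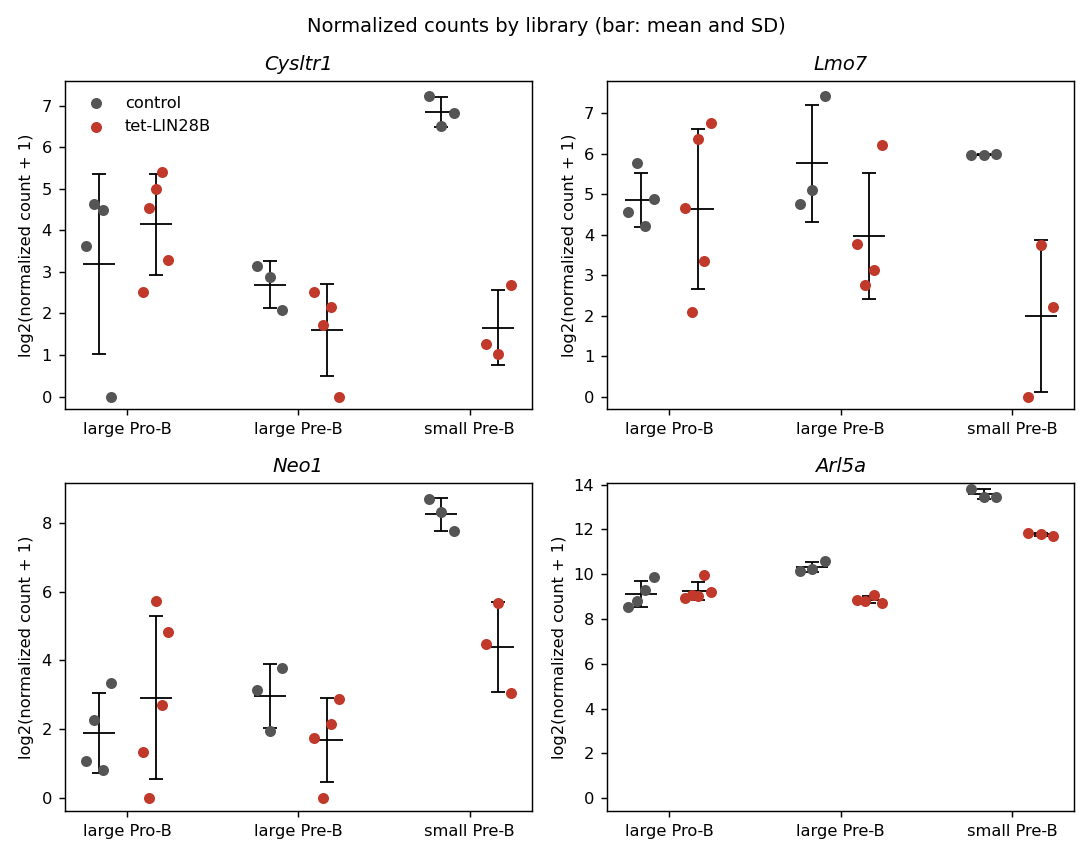
Normalized counts of the 4 genes in each library on the log2(value + 1) scale, by stage, with control libraries in grey, tet-LIN28B libraries in red, and the mean and SD of each group as bars. The groups are apart for all 4 genes in small Pre-B cells, for Arl5a alone in large Pre-B cells, and for none in large Pro-B cells.

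In large Pre-B cells, Arl5a was lower in every tet-LIN28B library, whereas Cysltr1, Neo1 and Lmo7 had overlapping groups. In this stage 2 of 14155 genes (0.0141%) were called lower and 6 (0.0424%) higher, 930 had an unadjusted p under 0.05, and in 2.87% all tet-LIN28B libraries lay below all controls. Only Lmo7 and Arl5a passed the filter on low values. Arl5a, chosen partly on this comparison, had 1138, 1201 and 1534 normalized counts in control and 461, 443, 540 and 425 in tet-LIN28B libraries. The highest induced library was below the lowest control by a wide margin. Its log2 fold change of -1.46 (SE 0.22) lay between -1.54 and -1.33 when one library was left out.

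Lmo7 had 26.2, 33.4 and 171 normalized counts in control and 12.6, 5.76, 7.77 and 73.9 in tet-LIN28B large Pre-B libraries. In each group 1 library was far above the rest, so the groups overlapped. Those libraries, control replicate 3 and tet-LIN28B replicate 4, also had the most genes detected of the stage, 28434 and 26211 against 20936 to 24320. The log2 fold change was -1.79 (SE 0.85). Without control replicate 3, the library that stands apart and the highest for Lmo7, it was -0.96, and without tet-LIN28B replicate 4 it was -2.55. That control library also had the lowest summed B lineage markers of the stage, 35876 against 42123 and 44532 in the other controls, and the lowest sum of 4 proliferation markers (Mki67, Top2a, Ccnb1, Cdk1), 50124 against 81333 and 97773. The 7 myeloid markers summed to 299, 6055 and 933 in the controls and to 169 to 326 in tet-LIN28B libraries, with none at 0 in all libraries of a group. The summed B lineage markers of the tet-LIN28B libraries, 43196 to 47823, overlapped with those of the controls, with no marker called. The part of these differences in the Lmo7 values was not tested.

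Cysltr1 had 7.79, 6.33 and 3.20 normalized counts in control and 4.74, 2.30, 3.45 and 0 in tet-LIN28B large Pre-B libraries, and Neo1 had 7.79, 2.88 and 12.8 against 2.37, 0, 3.45 and 6.40. These are values of a few reads per library, and both genes failed the filter. Every tet-LIN28B library was below the control mean for both genes. The differences of the log2 means were -1.09 for Cysltr1 and -1.26 for Neo1, on a scale that understates low genes. With one library left out, that of Cysltr1 ran from -1.41 (without control replicate 3) to -0.56 (without tet-LIN28B replicate 4). That of Neo1 ran from -1.76 (without control replicate 2) to -0.69 (without tet-LIN28B replicate 2) and was -0.85 without control replicate 3.

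In large Pro-B cells none of the 4 genes separated the genotypes, and tet-LIN28B libraries lay on both sides of the control mean for each. No gene of 13776 was called in this stage (0% lower, 0% higher) in limma. At an unadjusted p under 0.05 there were 394 genes, edgeR called 0 and DESeq2 called 4, and in 0.602% of genes all tet-LIN28B libraries lay below all controls. Arl5a had 373, 451, 634 and 925 normalized counts in control and 495, 534, 518, 992 and 598 in tet-LIN28B libraries. Both groups covered the same range, and the log2 fold change was 0.11 (SE 0.32, adjusted p = 0.999, limma). It was -0.068 without tet-LIN28B replicate 4, -0.086 without control replicate 1 and 0.35 without control replicate 4. These values come in part from the mice in which Arl5a was picked in large Pre-B cells.

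Lmo7 had 22.6, 53.2, 17.7 and 28.7 normalized counts in control and 24.2, 3.29, 81.5, 9.15 and 107.9 in tet-LIN28B large Pro-B libraries. The induced group held both the lowest and the highest values, with an SD of 46.8 against 15.8 in controls. The log2 fold change of -0.21 (SE 0.93, adjusted p = 0.999, limma) had the opposite sign to the difference of the means, 45.2 in tet-LIN28B and 30.6 in control libraries. It was 0.11 without tet-LIN28B replicate 4, 0.42 without tet-LIN28B replicate 2, 0.087 without control replicate 2 and -0.20 without control replicate 4.

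Cysltr1 had 11.3, 23.9, 21.5 and 0 normalized counts in control and 4.68, 22.2, 30.7, 41.2 and 8.78 in tet-LIN28B large Pro-B libraries. The groups overlapped throughout. The log2 fold change of 0.96 (SE 1.1, adjusted p = 0.999, limma) rested on control replicate 4, where the gene was at 0, and was -0.11 without it and 0.64 without tet-LIN28B replicate 4. Neo1 did not pass the filter, with 1.13, 3.86, 0.769 and 9.20 in control and 1.56, 0, 51.8, 5.49 and 27.6 in tet-LIN28B libraries. The difference of its log2 means was 1.04, and it was 1.09 without tet-LIN28B replicate 4, 1.52 without control replicate 4 and 0.34 without tet-LIN28B replicate 3. The third and the fifth induced library, highest for Neo1, were also the highest for Lmo7. They also had the highest summed plasmacytoid dendritic cell markers (Siglech, Ccr9, Klk1, Cox6a2), 140 and 193 against 9.88 to 92.6 in the other libraries of the stage. The most genes were detected in them and in control replicate 4, at 31881, 26233 and 26954 against 17931 to 23066 in the rest. In large Pre-B cells the dendritic cell marker sums were 87.7 and 96.0 in control replicate 3 and tet-LIN28B replicate 4, the libraries highest for Lmo7. The rest of that stage had sums of 77.7 to 169. The part of plasmacytoid dendritic cells, or of the number of genes detected, in the Lmo7 and Neo1 values was not tested.

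The genotype effect in large Pre-B cells was then set against that in large Pro-B cells in 1 model with the mouse as a random block, over 12898 genes, of which none was called (0%, limma, with 387 at an unadjusted p under 0.05). The difference between the effects was -1.42 on the log2 scale (SE 1.276) for Lmo7 and -1.64 (SE 0.35) for Arl5a, both as descriptions, since large Pre-B values chose Arl5a and may have chosen Lmo7. With one library left out that of Lmo7 ran from -2.17 to -0.52. Cysltr1 and Neo1 did not pass the filter on low values in both stages and are not in this model.

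Levels across stages were compared as RPM (reads per M reads on genes), with no test because the tables were normalized separately. The small Pre-B libraries also came from other mice than the large-stage libraries and were sequenced deeper. Stage and group of mice thus cannot be told apart in any comparison with small Pre-B cells. Arl5a had higher levels at each later stage in controls, from 33.1 ± 13.4 (SD, n = 4) at the Pro-B stage to 84.4 ± 24.8 (SD, n = 3) at the large and 354 ± 54.3 (SD, n = 3) at the small Pre-B stage. The control libraries of the stages did not overlap, at 20.7 to 51.0, 66.2 to 112.6 and 319 to 417 RPM. In tet-LIN28B mice its mean levels were 34.4, 27.8 and 98.8. There the large stages overlapped, at 27.3 to 48.8 and 25.3 to 31.5 RPM, and the small Pre-B libraries, at 95.1 to 102 RPM, were above both. The ratio of small to large Pre-B levels was 4.20 in control and 3.55 in tet-LIN28B mice, and that of large Pre-B to large Pro-B 2.55 in control and 0.81 in tet-LIN28B mice. Neo1 was near the floor in both large stages of controls, 0.207 and 0.524, and reached 9.04 in small Pre-B cells, against 1.02, 0.187 and 0.729 in tet-LIN28B mice. Cysltr1 had 0.793, 0.360 and 3.37 RPM in controls and 1.18, 0.154 and 0.0745 in tet-LIN28B mice. Lmo7 did not share this pattern, with 1.70, 5.38 and 1.79 in controls and 2.63, 1.56 and 0.151 in tet-LIN28B mice. Its large Pre-B control mean rested on control replicate 3, at 12.5 RPM against 1.52 and 2.07 in the other controls.

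**Figure D2:**
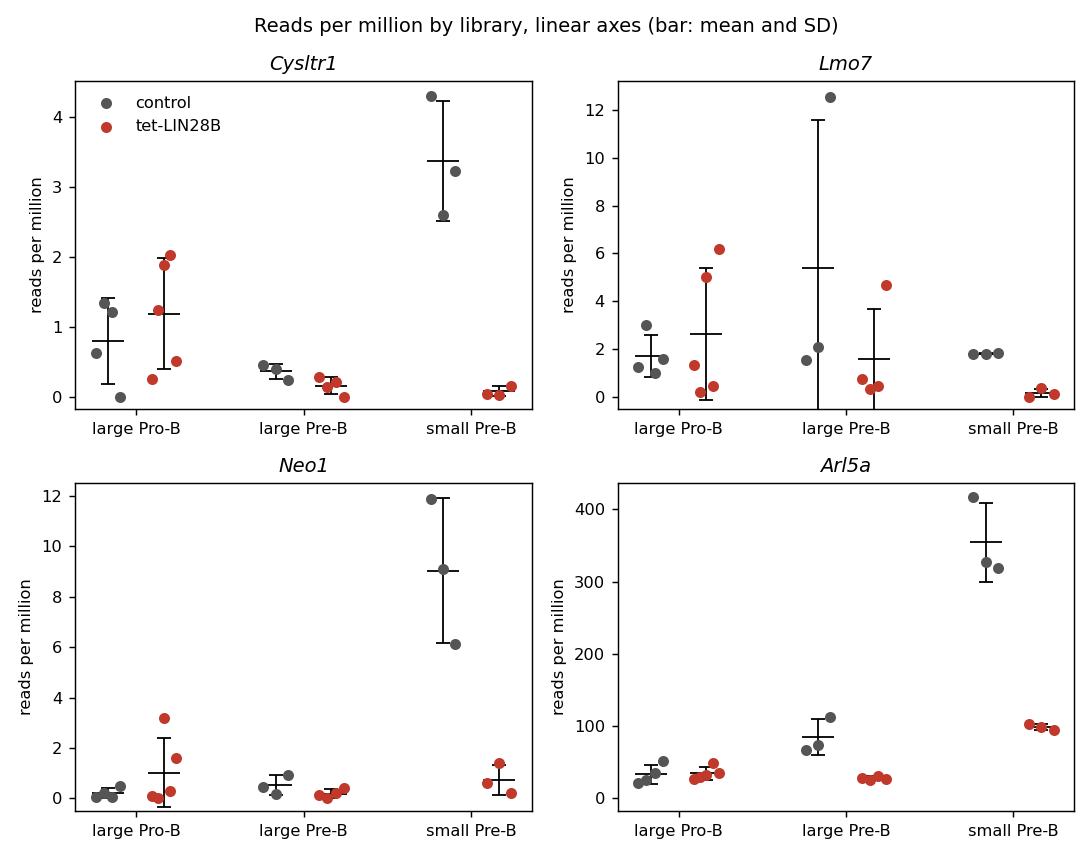
RPM in each library, on linear axes that differ between genes, with control libraries in grey, tet-LIN28B libraries in red and the mean and SD as bars, which are not drawn below the axis. Control levels of Arl5a, Neo1 and Cysltr1 are highest in small Pre-B cells, at means of 354, 9.04 and 3.37, and those of Lmo7 are not. The small Pre-B libraries are from other mice than those of the large stages.

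Within the 7 mice that gave both large stages, Arl5a was higher in large Pre-B than in large Pro-B cells in 3 of 3 control mice, by ratios of 2.94 to 3.19, and in 1 of 4 tet-LIN28B mice, where the ratios were 0.553 to 1.01. The control and induced mice did not overlap, but these are the mice on which Arl5a was picked. The share of all genes whose ratios separate the genotypes in this way was not computed. Lmo7 was higher in large Pre-B cells in 2 of 3 control and 2 of 4 tet-LIN28B mice, and Cysltr1 in 0 of 3 and 1 of 4. A mouse that was high for Lmo7 in 1 stage was not high in the other: the tet-LIN28B mouse with 5.01 RPM in large Pro-B cells had 0.453 in large Pre-B cells, and the one with 4.69 in large Pre-B cells had 0.450 in large Pro-B cells.

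**Figure D3:**
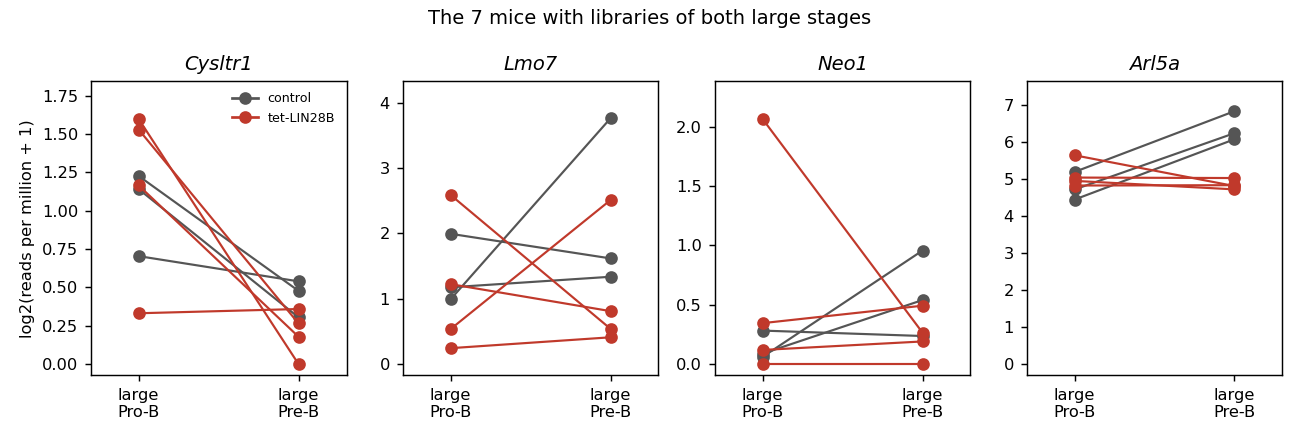
RPM, as log2(value + 1), of the 4 genes in large Pro-B and large Pre-B cells of the same mouse, a line for each of 3 control mice in grey and 4 tet-LIN28B mice in red. The control lines of Arl5a climb, with ratios of 2.94 to 3.19, while those of tet-LIN28B mice do not, and lines of Lmo7 run both ways in both genotypes.

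Among themselves, Lmo7 and Neo1 were the most alike, with a Pearson r of 0.811 over the 22 libraries of 15 mice after each stage was centred on its mean, and 0.717 after the genotype means were removed as well. The other pairs had r of 0.370 to 0.610, and -0.291 to 0.238 once genotype was removed. These are descriptions, since the libraries share genotype by design and some share a mouse, and the genes were chosen on part of them. Neo1 rested on few reads in most large-stage libraries. The part of the number of genes detected in the r of Lmo7 and Neo1 was not tested.

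**Figure D4:**
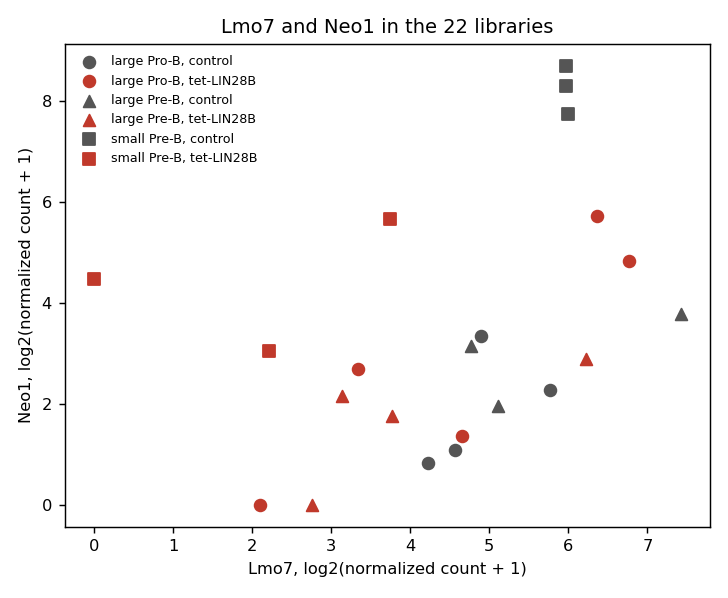
Neo1 against Lmo7 in the 22 libraries, both as log2(normalized count + 1), with circles, triangles and squares for Pro-B, large Pre-B and then small Pre-B cells and red for tet-LIN28B. Within each large stage, libraries high in Lmo7 tend to be high in Neo1 in both genotypes, with an r of 0.717 over all libraries after stage and genotype means were removed.

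Over the same 22 libraries, the genes most like each member were listed among 11854 genes, with no test. The r used had stage means removed and genotype kept. Genes that differ between genotypes in small Pre-B cells, on which the members were picked, thus tend to either end of these lists. An r with genotype removed was not computed for them. For Arl5a they were Coq7 (r 0.896), an enzyme of ubiquinone synthesis, then Tspan2, Clec2i, Aig1 and AW112010, and the most opposite were Stat4 (r -0.880), a transcription factor of cytokine signalling, and Gga2. Coq7 had 6619 normalized counts in control and 3979 in tet-LIN28B small Pre-B cells, and Stat4 had 156 and 632. For Neo1 they were Col25a1 (r 0.903), a transmembrane collagen, then Ankrd35, Ackr3, Lmo7 and Trio, and the most opposite were H2-K1 (r -0.886) and Gimap1. Col25a1, second on the list of Lmo7 after Elfn2 (r 0.846) and ahead of Rora, Traf1 and Gm45767, had 588 normalized counts in control and 121 in tet-LIN28B small Pre-B cells. Opposite to Lmo7 were Ada (r -0.902), adenosine deaminase, and Slc43a1. For Cysltr1 the list was led by 4930558J18Rik (r 0.804), followed by Rhebl1, Cfap300, Map4k3 and Prkar2b, with Shmt2 (r -0.825), a mitochondrial enzyme of serine and glycine metabolism, and Myc (r -0.797) at the opposite end. Myc had 51.1 and 408 normalized counts in control and tet-LIN28B small Pre-B cells.

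Lists of partners and paralogs of each gene were compiled with the earlier results on the 4 genes known, and in neither large stage was any of their genes called. In small Pre-B cells 4 genes of the 51 tested were lower and none was higher, against 7.03% and 7.34% of all genes. Of the leukotriene list, enzymes, receptors and G proteins of the pathway, 14 of 16 genes were listed, 5 were tested and 1 was lower, with a median log2 fold change of -0.02 against -0.0024 over all genes. That gene was Gna11, a Gq family subunit, with means of 2259 ± 169 (SD, n = 3) for controls and 1573 ± 220 (SD, n = 3) after induction, a log2 fold change of -0.53 (limma adjusted p = 0.0118), lost without control replicate 2 (adjusted p = 0.0507). Cysltr2, the other cysteinyl leukotriene receptor, did not pass the filter, at 15.6 ± 8.14 (SD, n = 3) and 4.65 ± 4.08 (SD, n = 3). Alox5, the enzyme that starts leukotriene synthesis, was at 0 in all controls of this stage.

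Of the neogenin list, receptors, ligands and downstream kinases and SMAD proteins, 11 genes were tested and 2 were lower, with a median log2 fold change of -0.33. Acvr2a, a receptor of activins and bone morphogenetic proteins, was at 321 ± 54.6 (SD, n = 3) and 198 ± 25.1 (SD, n = 3), a log2 fold change of -0.69 (limma adjusted p = 0.0279), and Fyn, a Src family kinase, at -0.33 (limma adjusted p = 0.0450). Leaving out one library ended both calls without tet-LIN28B replicate 1 (0.0786 and 0.142), control replicate 1 (0.117 and 0.0943), control replicate 2 (0.0636 and 0.109) and tet-LIN28B replicate 3 (0.0584 and 0.0584), and that of Fyn also without control replicate 3 (0.150). Of the other netrin receptors, Unc5a was tested and did not pass (log2 fold change -0.49, limma adjusted p = 0.259).

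Of the LMO7 junction list, which holds actinins, catenins, nectins, emerin and lamin A, 6 genes were tested and none was called, with a median log2 fold change of -0.06. Emd, the gene of emerin, had 1480 ± 34.7 (SD, n = 3) and 1544 ± 78.4 (SD, n = 3). Of the ARL and GARP list, Arf-like and Arf GTPases with the subunits of the tethering complex, 29 genes were tested and 1 was lower, with a median of 0.01. That was Arl5c, the paralog of Arl5a, with means of 37422 ± 1607 (SD, n = 3) for controls and 28919 ± 101 (SD, n = 3) after induction, a log2 fold change of -0.37 (limma adjusted p = 0.00251), called with each library left out (adjusted p of at most 0.0160). Arl5b, the third member, was at 686 ± 58.3 (SD, n = 3) and 865 ± 199.6 (SD, n = 3) and did not pass (log2 fold change 0.31, limma adjusted p = 0.205). The complex subunits Vps51, Vps52, Vps53 and Vps54 had log2 fold changes of 0.06, -0.09, 0.07 and 0.13, with limma adjusted p of 0.347 to 0.696.

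**Figure D5:**
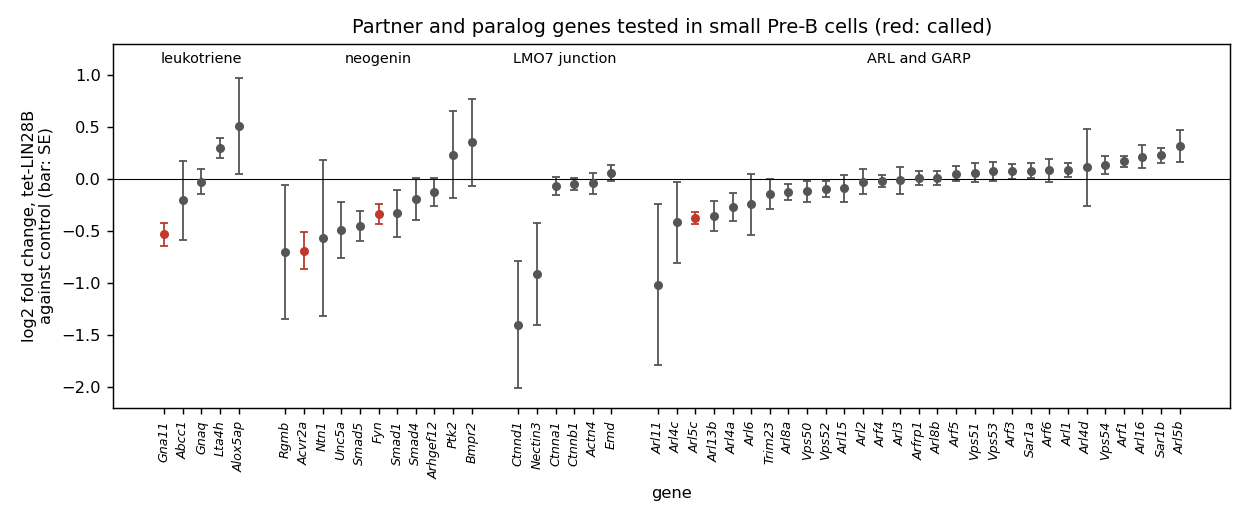
Log2 fold changes, tet-LIN28B against control, of the 51 partner and paralog genes tested in small Pre-B cells, with the SE of the limma fit as bars and the 4 called genes (Gna11, Acvr2a, Fyn and Arl5c) in red. The genes of the ARL and GARP list lie close to 0, around a median of 0.01, and none of the 4 called genes is above 0.

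The 2 nearest protein-coding genes on each side of the 4 were looked at after the values were seen. Of 16 such genes 9 were tested in small Pre-B cells, and 3 were called lower and none higher, against 7.03% lower over all genes. The other 6 (Commd6, Uchl3, Adpgk, Bbs4, Rif1, Stam2) had log2 fold changes of -0.27 to 0.05 and limma adjusted p of 0.0813 to 0.968. Cacnb4, a calcium channel subunit whose gene ends 3446 bases upstream of the Arl5a start on the same strand, had mean normalized counts of 174 ± 64.0 (SD, n = 3) for control and 36.7 ± 11.5 (SD, n = 3) for tet-LIN28B small Pre-B libraries, a log2 fold change of -2.19 (SE 0.34, limma adjusted p = 0.00276). It stayed called with each library left out, with adjusted p of at most 0.0184. In large Pre-B cells it was at 16.3 ± 4.48 (SD, n = 3) and 2.91 ± 4.51 (SD, n = 4) with no overlap, which did not pass (log2 fold change -2.82, limma adjusted p = 0.747). In its longest coding transcript 16.5% of the 50-base words also occur in another gene, mostly A430018G15Rik, so part of its reads may be shared. Gm5127, which lies on the opposite strand across Cysltr1 with no exonic base in common, was at 27.9 ± 11.2 (SD, n = 3) and 7.04 ± 3.43 (SD, n = 3) at that stage (log2 fold change -1.87, limma adjusted p = 0.0452), a call that held only without tet-LIN28B replicate 2 among the 6 fits with one library left out (adjusted p up to 0.186). Kctd12, the next gene to Lmo7 at a distance of 1041873 bases, was at 1819 ± 179 (SD, n = 3) and 1443 ± 83.4 (SD, n = 3), a log2 fold change of -0.33 (limma adjusted p = 0.0411) with adjusted p up to 0.154 when one library was left out.

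Markers of other stages and cells moved with genotype in small Pre-B cells, the stage on which all 4 genes were chosen. Of 4 immature and mature B cell markers (Ighd, Fcer2a, Cr2, Ms4a1) 3 were called higher and none lower, and they summed to 10459 to 10931 normalized counts in control and 18585 to 26447 in tet-LIN28B libraries. Of 4 proliferation markers 2 were called higher, with sums of 3094 to 3433 and 3499 to 5375. Of 4 plasma cell markers Sdc1 and Prdm1 were called lower and Xbp1 higher, with sums of 11165 to 12901 in control and 8543 to 10272 in tet-LIN28B libraries. Of 6 erythroid markers Hba-a2 and Hbb-bs were called higher, with sums of 48.8 to 98.6 and 136.6 to 170.1. Of the 7 B lineage markers Cd79b was called higher and Ebf1 lower, with sums of 281772 to 289225 and 311742 to 326224. Of 4 plasmacytoid dendritic cell markers Ccr9 was called lower, with overlapping sums of 527 to 693 and 501 to 578. Of 5 stroma and endothelium markers Col1a1 was called higher, with means of 0.674 in control and 15.4 in tet-LIN28B libraries. The transgene lies in the Col1a locus, and the part of that locus in the Col1a1 counts was not tested. The sums of the 5 overlapped, at 11728 to 13113 and 10678 to 12203, and were mostly Pecam1 (means of 12595 and 11351). The 4 NK cell markers, none called, summed to 10.3 to 43.2 and 0 to 6.34. The 7 myeloid markers, none called, summed to 1628 to 2953 and 1417 to 1491, and the 5 T cell markers to 1.88 to 10.2 and 5.19 to 9.15, with 2 of them at 0 in all libraries of each group. The sums of the 6 listed eosinophil, basophil and mast cell markers, cells in which Cysltr1 is known to be expressed, were 0 to 15.1 and 12.4 to 43.6, with none called and 5 and 4 of the genes at 0 throughout. The part of stage and cell makeup in the values of the 4 genes was not tested.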

How the data were processed

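STAR 2.7.1, RSEM 1.28, DESeq2 and the build mm10 are named in the submitters' processing notes, whereas no annotation is named there (not given in the sources used here). For each stage on its own, the authors deposited a signal that is the normalized count of each gene, the count divided by 1 size factor per library. The authors' own comparisons (mean signal, log2 fold change, SE, statistic and p-values) were deposited too and were not used. The number of columns that could not be mapped to a sample was 0.

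Values came out as whole reads for 100% of genes (within 0.1 read), which gave library totals and the edgeR 4.0.16 and DESeq2 1.42.0 alternatives. Altered symbols were restored from the reference. Genotypes were compared within a stage with limma 3.58.1 in R 4.3.3 (trend) on log2 of the normalized count plus 1, for genes with at least 10 in as many libraries as the smaller group, with Benjamini-Hochberg adjustment over all genes tested, called at an adjusted p under 0.05. The fits were run on simulated data of genes above a minimum mean of reads, with the same spread for every gene. That check does not cover genes that are lower or more variable. SDs are between mice. PCR reads carry no molecular identifiers, so floors and intervals cover counting error only. Reference sequences are from RefSeq (GRCm38.p6) and 3′ UTRs from GENCODE (GRCm38). The sequencer used for each library is not given, so that batch could not be checked.

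The 4 genes, the lists and the rule were chosen with earlier results of these data known. The rule names the 4 genes, called genes of the 4 lists, the 5 most and 2 least alike genes per member and Lin28b. Neighbours, Cysltr2, Alox5, Unc5a, Emd, Arl5b, the Vps genes and the let-7 search were added after values were seen. In each of 2 marker lists 1 gene is not reported here and was left out of the sums.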

Additional observations from a re-analysis of the deposited data

Results flagged for a closer look

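In 2 of 12 groups of the 4 genes with at least 4 libraries, 1 library lay far from the rest, and chance alone gives about 1 in 20 such groups. Lmo7 was at 73.9 normalized counts in tet-LIN28B replicate 4 of large Pre-B cells, against a group median of 10.2, and the gap to the next library was 0.899 of the range. Arl5a was at 992 in tet-LIN28B replicate 4 of large Pro-B cells, against a group median of 534, with a gap of 0.791 of the range.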

How the results depend on the processing

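Of 245 values of the 4 genes and of genes called under other settings, 217 were kept. Tested values kept their direction and side of the threshold, untested values moved by less than 1 SD, and counts stayed within a factor of 1.5. For this score Lmo7 in large Pre-B cells, and its difference between the large stages, were handled as tested values. The difference of Arl5a between the large stages was scored by 1 SE in place of 1 SD. In large Pro-B cells DESeq2 called 4 genes in place of 0, and leaving out one library gave 0 to 1. In large Pre-B cells the 8 calls became 15 with no filter, 1 with equal totals, 4 with quantile normalization, 0 with edgeR and 79 with DESeq2. Leaving out one library there gave 0 when it was induced replicate 1, 2 or 4, 4 when it was induced replicate 3, 23 when it was control replicate 1 and 2 when it was either of the remaining controls. In small Pre-B cells the 2107 calls became 1016 to 1965 with one library left out, under 1.5 times fewer only without tet-LIN28B replicate 2 or 3. Fewer libraries were fitted in these, and for the other settings the cause was not tested.

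Cysltr1 in small Pre-B cells was at -4.01 with a pseudocount of 5, which compresses low values. In large Pro-B cells the log2 fold change of Lmo7 turned to 0.52 in edgeR and 0.56 in DESeq2, and ran from -0.74 to 0.42 with one library left out; that of Arl5a ran from -0.086 to 0.35 and that of Cysltr1 from -0.11 to 1.44. Among the list counts and named genes of the lists and neighbours, 222 of 263 values were kept, counts within a factor of 1.5 and genes by their call. Counts in the large stages were 0 under every setting, so they add little to this. With one library left out, Arl5c and Cacnb4 kept their call in 6 of 6 fits and Gna11 in 5. Acvr2a kept its call in 2, and Fyn, Gm5127 and Kctd12 in 1 each.

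The deviations of same-numbered libraries from their group means correlated at 0.430, 0.142, -0.188 and 0.274 for Pro-B cells. They correlated at 0.160, 0.144 and -0.059 for large Pre-B cells and at 0.017, -0.112 and -0.004 for small Pre-B cells. Libraries with different numbers were not correlated, so these values cannot decide whether the numbers pair the samples. With the replicate block, calls were 0, 2 and 1758. Large Pro-B tet-LIN28B replicate 5 and large Pre-B tet-LIN28B replicate 4 have no partner and add nothing to that fit. Depth limits Cysltr1 and Neo1 in the large stages.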
